A study of Danio rerio with 12 samples.

Results

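Wound epidermis and blastema marker genes were followed in regenerating zebrafish larval tails, with and without an inhibitor of TGF-β type I receptors. The set held 10 names: mvp, lepb, aldh1a2, msx1b, msx2b, msx3, dlx5a, sp8a, raldh2 and hmgb3a. They were matched to the symbols of the deposited gene IDs with letter case ignored, and where no symbol matched, the closing paralogue letter was dropped and every ID of that symbol was taken. Of these names 9 matched, giving 11 gene IDs of the 30258 in the count table. The name raldh2 matched none and is listed by RefSeq as a synonym of aldh1a2, which was in the set already. DLX5, SP8 and HMGB3 were reached by dropping the letter, so the a and b copies of SP8 and of HMGB3 are told apart below only by their Ensembl IDs.

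The study compared pools of 100 larval tails, wild type per the labels, in 4 groups of 3 libraries. In cut SB431542 tails the last 200 µm or so was cut off at 72 h after fertilisation, the larvae were kept in 50 µM SB431542 until 90 h, and the new end of the tail was then collected. Cut DMSO tails were operated on and collected in the same way, 18 h after the cut, with 0.1% DMSO as vehicle. Uncut SB431542 and uncut DMSO tails had the same treatments, and the matching region was collected at 90 h from larvae without an earlier cut. SB431542 blocks the kinase of ALK4, ALK5 and ALK7, the type I receptors of TGF-β, activin and nodal ligands, so signalling through any of these ligands is inhibited together. The labels do not say that the pools of a group came from separate clutches, so the p-values cover only pool-to-pool spread, some of which may be technical.

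When a fin fold or fin is cut, epidermal cells close the wound and thicken into a wound epidermis that signals to the tissue below. Mesenchymal cells under it lose some of their differentiated features, divide and form the blastema, from which the missing part grows. Homeobox genes of the msx and dlx families and the zinc finger gene sp8 are used as markers of the wound epidermis or distal blastema, retinoic acid made by Aldh1a2 is required for blastema formation in the adult zebrafish fin, and lepb is induced in regenerating fins and hearts of adult zebrafish. MVP encodes the main protein of the vault, a large ribonucleoprotein particle of the cytoplasm.

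Levels are CPM, counts scaled to 1000000 per library with the trimmed mean (TMM) factors applied. The library kit reads 1 tag near the 3′ end of each transcript, so levels were not scaled by transcript length. Whether levels of different genes can be compared in other respects, such as how well each 3′ end is annotated, was not tested. Total counts ran from 7368986 to 12914981 per library. Values of a group are given in the order of its replicate numbers, which were 2, 3 and 4 in both SB431542 groups, 1, 3 and 4 in cut DMSO tails and 1, 2 and 4 in uncut DMSO tails. Changes are log2 fold changes ± SE from edgeR's quasi-likelihood test over 13978 genes, two-sided, with p-values adjusted by the Benjamini-Hochberg method over all of them. A gene was called at an adjusted p under 0.05. Of the 11 IDs, 9 passed the filter on low counts and were tested, while lepb and msx3 were not.

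1 library stood apart. Uncut SB431542 replicate 4 had a median correlation of 0.905 with the other libraries, against 0.934 to 0.944 for the other 11. It was the highest of the 12 libraries for 19.0% of all tested genes and for 4 of the 11 marker IDs, ALDH1A2, msx1b, msx3 and HMGB3 (ENSDARG00000056725). Most sums of cell type markers in this library lay outside those of uncut SB431542 replicates 2 and 3, a range set by only 2 libraries. Fin fold mesenchyme markers summed to 4282 CPM in replicate 4, against 2885 and 2900 CPM in replicates 2 and 3 (in rising order), and basal epidermis markers to 2843 CPM against 2225 and 2296 CPM. Notochord markers summed to 3050 CPM against 1981 and 2452 CPM, neuron markers to 619.7 CPM against 846 and 1021 CPM, and periderm markers to 15170 CPM against 18649 and 19173 CPM. Erythrocyte markers summed to 862 CPM against 330 and 536 CPM, skeletal muscle markers to 55136 CPM against 49160 and 51456 CPM, and macrophage markers to 49.7 CPM against 45.4 and 47.8 CPM. Neutrophil markers, at 359.8 CPM, lay between the other sums of 240.7 and 399.7 CPM. The part of these differences in the values of the 4 IDs was not tested. Results that rest on this library are given below with and without it.

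**Figure D1:**
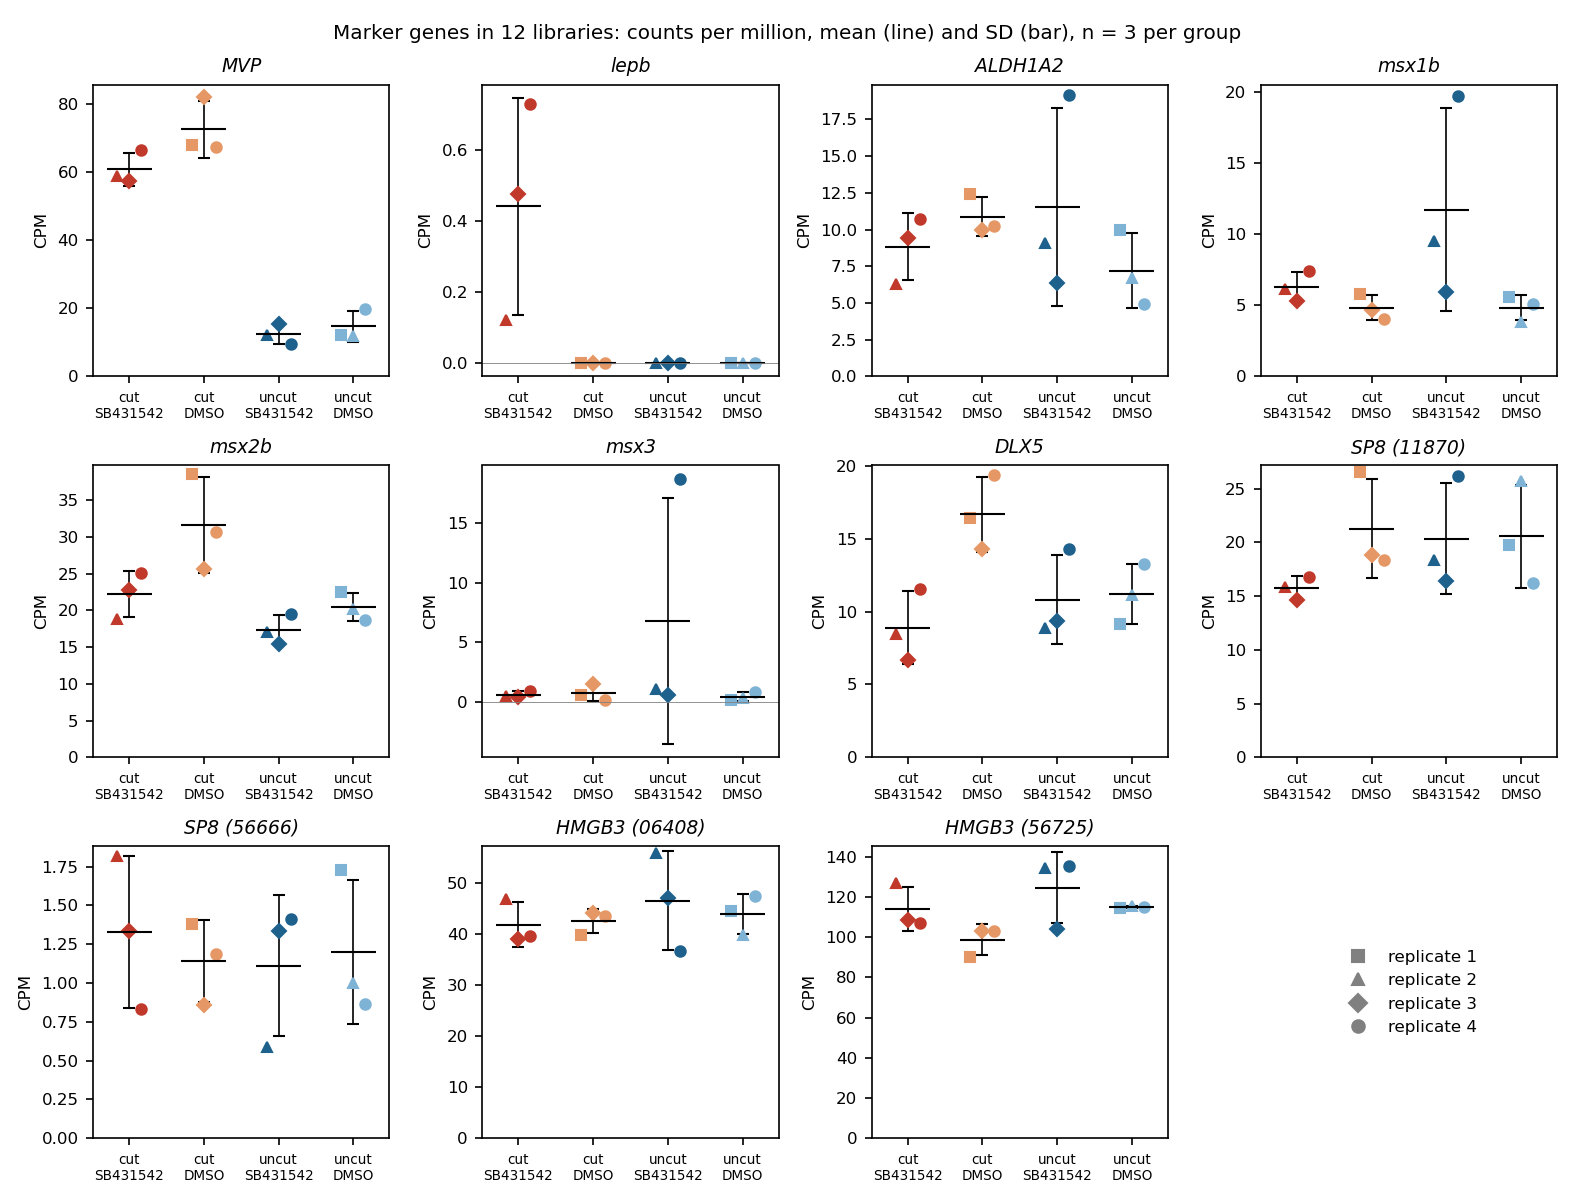
CPM of the 11 gene IDs in each library (symbols mark replicate numbers), with the group mean as a line and the SD as a bar, n = 3 libraries per group. MVP stood at 57.4 to 82.2 CPM in cut tails against 9.47 to 19.9 CPM in uncut tails, lepb had reads in cut SB431542 tails only, and msx3, msx1b and ALDH1A2 had their highest value in uncut SB431542 replicate 4.

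Excision raised 1 of the 9 tested marker IDs, MVP, and it did so with either treatment. The share of all tested genes called higher was 3.65% under DMSO and 1.49% under SB431542 (5.58% and 2.06% called in either direction), and read against these shares 1 of 9 is no result about the markers as a set. Under DMSO the cut and uncut groups did not overlap for another 3 IDs that were higher after excision, msx2b, DLX5 and ALDH1A2, and for 1 that was lower, HMGB3 (ENSDARG00000056725). Over all tested genes, 15.5% lay higher and 13.1% lower without overlap in that comparison. The median log2 fold change of the 9 IDs was 0.07 under DMSO and -0.15 under SB431542, beside 0.02 and 0.00 over all tested genes.

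MVP (ENSDARG00000021242) had 58.9, 57.4 and 66.5 CPM in cut SB431542 tails and 68.1, 82.2 and 67.6 CPM in cut DMSO tails. Uncut tails held 12.3, 15.4 and 9.47 CPM with SB431542 and 12.2, 11.99 and 19.9 CPM with DMSO. Every cut library thus stood far above every uncut one. The log2 fold change of excision was 2.32 ± 0.23 under SB431542 (edgeR adjusted p = 6.25e-06) and 2.28 ± 0.22 under DMSO (edgeR adjusted p = 5.08e-06), and both calls were made in all 22 alternative analyses. The difference between these changes, the interaction of excision and SB431542, was 0.04 ± 0.31 (edgeR adjusted p = 0.991). All cut SB431542 libraries lay just below all cut DMSO libraries, but the change of -0.25 ± 0.20 did not pass the test (edgeR adjusted p = 0.565). In uncut tails the value was -0.29 ± 0.24 (edgeR adjusted p = 0.576).

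The genes of the vault's other proteins had excision changes above 0 that did not pass the test. The vault poly(ADP-ribose) polymerase gene parp4 had 5.45, 4.47 and 6.99 CPM in cut SB431542 tails and 3.00, 6.56 and 6.49 CPM in cut DMSO tails, against 0.354, 1.48 and 3.12 CPM in uncut SB431542 tails and 1.73, 1.28 and 2.21 CPM in uncut DMSO tails. Cut and uncut libraries did not overlap under either treatment, and the excision changes were 1.69 ± 0.48 under SB431542 (edgeR adjusted p = 0.0768) and 1.55 ± 0.47 under DMSO (edgeR adjusted p = 0.0612). Without uncut SB431542 replicate 4 both were called, at adjusted p-values of 0.0100 and 0.0164, and the DMSO change was also called without cut DMSO replicate 1 (0.0315) and without uncut SB431542 replicate 2 (0.0347). The fit without uncut SB431542 replicate 4 called 2.76% and 9.89% of all tested genes in these comparisons, against 2.06% and 5.58% with all libraries. The telomerase-associated gene tep1, whose protein is the remaining vault component, averaged 4.73 ± 1.44 and 3.38 ± 0.348 CPM in cut SB431542 and cut DMSO tails, against 2.35 ± 1.60 and 2.73 ± 1.11 CPM in uncut SB431542 and uncut DMSO tails (SD, n = 3).

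The genes whose log2 CPM followed MVP most closely over the 12 libraries were JAK1 (Pearson r = 0.981), the membrane-cytoskeleton linker gene EZR (r = 0.980) and the small GTPase gene RRAD (r = 0.979). They were picked from 7728 genes with a symbol and a mean of at least 5 CPM, and the libraries share their groups, so these correlations describe a shared step between cut and uncut tails. EZR averaged 52.7 ± 8.48 CPM in cut SB431542 and 61.7 ± 7.08 CPM in cut DMSO tails, against 14.0 ± 2.20 CPM in uncut SB431542 and 16.2 ± 0.800 CPM in uncut DMSO tails.

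**Figure D2:**
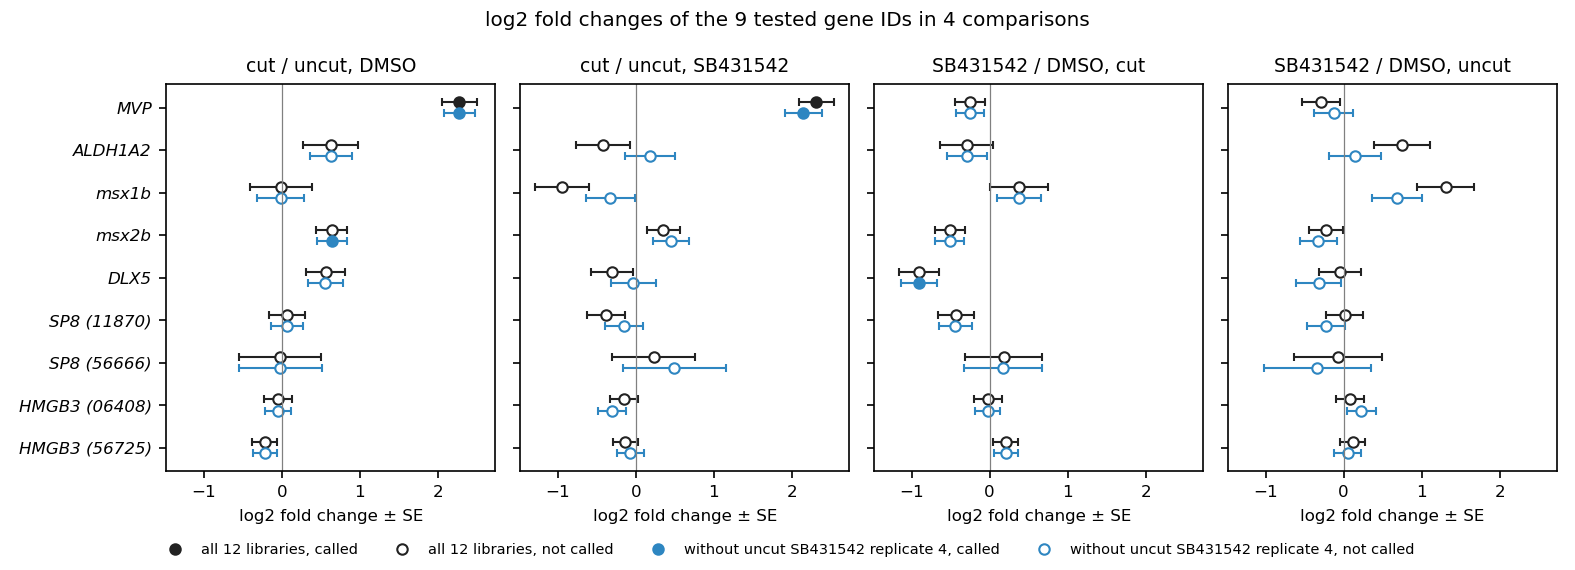
log2 fold changes ± SE of the 9 tested gene IDs in the 4 comparisons, with all 12 libraries (black) and without uncut SB431542 replicate 4 (blue). Filled points were called at an adjusted p under 0.05. MVP was called in both excision comparisons with either set of libraries, while msx2b after excision under DMSO and DLX5 in cut tails were called only without that library. Without it 9.89% and 3.27% of all tested genes were called in the last 2 comparisons named, against 5.58% and 0.286% with it.

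Among the homeobox genes, msx2b (ENSDARG00000101023) and DLX5 (ENSDARG00000042296) had their highest levels in cut DMSO tails. For msx2b, cut SB431542 tails had 18.9, 22.7 and 25.0 CPM and cut DMSO tails 38.6, 25.7 and 30.7 CPM. Uncut tails had 17.1, 15.4 and 19.5 CPM with SB431542 and 22.4, 20.1 and 18.7 CPM with DMSO. Cut DMSO tails thus lay above each of the other groups without overlap, and the other 3 groups overlapped their neighbours in order of mean. Under DMSO the excision change was 0.64 ± 0.20 (edgeR adjusted p = 0.0687), which was called without uncut SB431542 replicate 4 (adjusted p = 0.0346), a library of neither group. The fit without that library called 9.89% of all tested genes in this comparison, against 5.58% with all libraries. Under SB431542 the excision change was 0.36 ± 0.21 (edgeR adjusted p = 0.434). SB431542 against DMSO gave -0.51 ± 0.20 in cut tails (edgeR adjusted p = 0.223) and -0.23 ± 0.21 in uncut tails (edgeR adjusted p = 0.625), and the interaction was -0.28 ± 0.29 (edgeR adjusted p = 0.916). Part of the msx2b counts was not whole, and counts of some genes named below, such as lepr and il6st, were fractional too. The source of the fractions was not tested.

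DLX5 had 8.47, 6.66 and 11.6 CPM in cut SB431542 tails and 16.4, 14.3 and 19.4 CPM in cut DMSO tails. It had 8.84, 9.32 and 14.3 CPM in uncut SB431542 tails and 9.16, 11.1 and 13.3 CPM in uncut DMSO tails. The cut DMSO libraries were above all cut SB431542 and all uncut DMSO libraries, and the remaining 3 groups overlapped one another in order of mean. In cut tails SB431542 changed DLX5 by -0.91 ± 0.26, the largest decrease among the 9 IDs in that comparison, at an unadjusted p of 0.00219 and an edgeR adjusted p of 0.107. Without uncut SB431542 replicate 4 it was called at an adjusted p of 0.0314. That fit called 3.27% of all tested genes in this comparison, against 0.286% with all libraries. Excision gave -0.30 ± 0.27 under SB431542 (edgeR adjusted p = 0.642) and 0.56 ± 0.25 under DMSO (edgeR adjusted p = 0.213). The interaction was -0.87 ± 0.37, at an unadjusted p of 0.0317 and an edgeR adjusted p of 0.910. Without uncut SB431542 replicate 4 the interaction was -0.59 ± 0.37 (edgeR unadjusted p = 0.123). In uncut tails, with all libraries, SB431542 gave -0.04 ± 0.27 (edgeR adjusted p = 0.957).

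The gene msx1b (ENSDARG00000008886) had a lower mean than msx2b in all groups, and its excision change under DMSO was -0.01 ± 0.40 (edgeR adjusted p = 0.992). Cut tails had 6.17, 5.33 and 7.41 CPM with SB431542 and 5.76, 4.66 and 4.02 CPM with DMSO. Uncut tails had 9.55, 5.92 and 19.8 CPM with SB431542 and 5.58, 3.85 and 5.10 CPM with DMSO. All uncut SB431542 libraries were above all uncut DMSO libraries, and the highest of them, replicate 4, was 2.55 times the mean of the other 2. The change in uncut tails was 1.31 ± 0.36 (unadjusted p = 0.0019, edgeR adjusted p = 0.116). It was 0.68 without replicate 4 (adjusted p = 0.472) and 1.60 without replicate 3, when it was called (adjusted p = 0.0161). Excision under SB431542 gave -0.94 ± 0.34 (edgeR adjusted p = 0.174), which was -0.32 without replicate 4. In cut tails SB431542 gave 0.38 ± 0.37 (edgeR adjusted p = 0.654). The interaction was -0.93 ± 0.52 (edgeR adjusted p = 0.910), and -0.31 without uncut SB431542 replicate 4.

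The third msx gene, msx3 (ENSDARG00000015674), had 186 counts in uncut SB431542 replicate 4 and 1 to 16 in each of the other 11 libraries. That is 18.7 CPM against 0.133 to 1.52 CPM, and 22.7 times the mean of uncut SB431542 replicates 2 and 3. Outside this library msx3 was at 0.381 to 0.939 CPM in cut SB431542 tails, 0.183 to 1.52 CPM in cut DMSO tails and 0.133 to 0.867 CPM in uncut DMSO tails, ranges that overlap. It did not pass the filter, and in a fit with no filter its edgeR adjusted p was 0.318 for excision under SB431542 and 0.317 for SB431542 in uncut tails.

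**Figure D3:**
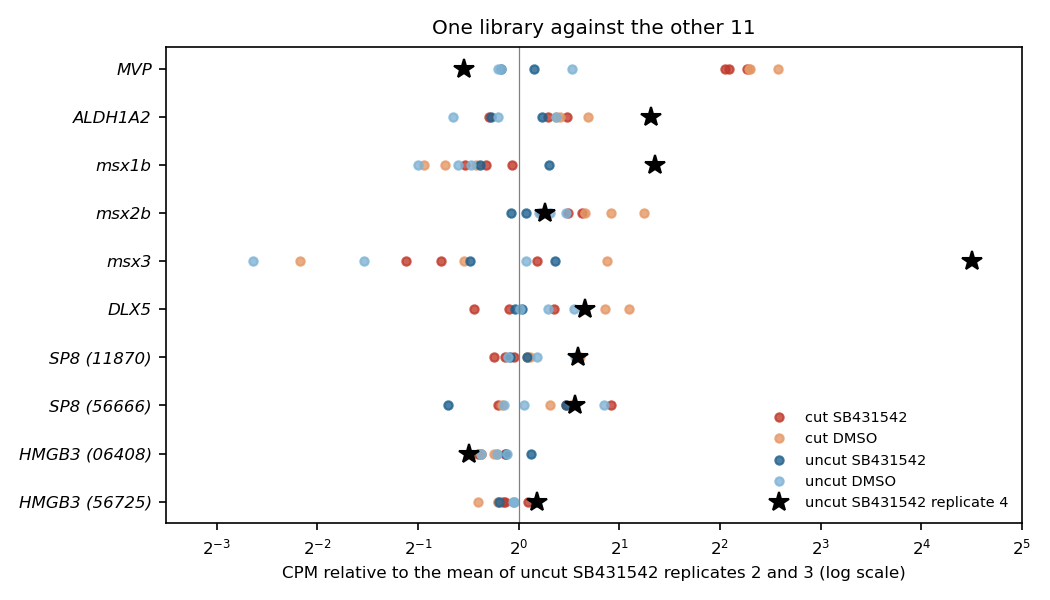
CPM of the 10 gene IDs with reads in uncut SB431542 replicates 2 and 3, relative to the mean of those libraries, on a log scale. Stars mark uncut SB431542 replicate 4 and circles the other 11 libraries, coloured by group. The star lies to the right of all circles for msx3 (22.7 times the mean of replicates 2 and 3), msx1b (2.55 times), ALDH1A2 (2.48 times) and HMGB3 ENSDARG00000056725 (1.14 times), and to the left of all circles for MVP (0.685 times) and HMGB3 ENSDARG00000006408 (0.712 times).

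SP8 encodes a zinc finger transcription factor needed in mice for the ridge of epidermis at the tip of the limb bud. Nearly all SP8 counts came from 1 of its IDs, ENSDARG00000011870, which held 92.2% ± 2.81, 94.9% ± 0.877, 94.8% ± 2.20 and 94.4% ± 2.19 of SP8 CPM in cut SB431542, cut DMSO, uncut SB431542 and uncut DMSO tails (SD, n = 3). This ID had 15.9, 14.7 and 16.8 CPM in cut SB431542 tails, 26.6, 18.8 and 18.4 CPM in cut DMSO tails, 18.4, 16.4 and 26.2 CPM in uncut SB431542 tails and 19.8, 25.7 and 16.2 CPM in uncut DMSO tails. The cut SB431542 libraries were all below the cut DMSO libraries, and the other groups overlapped. In cut tails SB431542 gave -0.44 ± 0.23 (edgeR adjusted p = 0.381), and excision under SB431542 gave -0.38 ± 0.24 (edgeR adjusted p = 0.468). The other ID, ENSDARG00000056666, ranged from 0.590 to 1.82 CPM over the 12 libraries, and all its groups overlapped.

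In cut tails, then, SB431542 left 4 of the 9 tested IDs lower without overlap, MVP, msx2b, DLX5 and SP8 (ENSDARG00000011870), and 1 higher, HMGB3 (ENSDARG00000056725). Over all tested genes 11.5% were lower and 12.6% higher without overlap. The count of called IDs was 0, where 0.286% of all tested genes were called. At an unadjusted p under 0.05 there were 2 (15.3% of all tested genes). DESeq2 called 1 marker ID (DLX5, adjusted p = 0.0399), and 330 of all 13978 genes tested. The median log2 fold change of the 9 IDs was -0.25, beside 0.00 over all tested genes. The excision comparison under DMSO and this one share the cut DMSO libraries, so their values are not independent of each other.

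SP6, a relative of SP8 from the list of paralogues and family members, was the family gene with a called SB431542 change. In mice Sp6 and Sp8 act together in the limb ectoderm. SP6 (ENSDARG00000099880) had 5.32, 2.19 and 5.32 CPM in cut SB431542 tails and 19.2, 19.0 and 19.2 CPM in cut DMSO tails. Uncut tails held 1.06, 2.52 and 2.92 CPM with SB431542 and 4.78, 2.00 and 2.89 CPM with DMSO. The cut DMSO libraries stood far above all others. SB431542 changed SP6 in cut tails by -2.19 ± 0.31 (edgeR adjusted p = 0.00262), a call made in 21 of 22 alternative analyses. Excision changed it under DMSO by 2.57 ± 0.33 (edgeR adjusted p = 8.05e-05, called in 22 of 22), and under SB431542 the change was 0.94 ± 0.44 (edgeR adjusted p = 0.291). The interaction was -1.63 ± 0.58 and was not called (edgeR adjusted p = 0.910). Of the 16 tested IDs of this list, 1 was called higher after excision under DMSO and 0 lower, 0 and 0 under SB431542, 0 and 1 for SB431542 in cut tails, and 0 and 0 in uncut tails. Among all tested genes, 3.65% were called higher after excision under DMSO and 1.49% under SB431542. Calls for SB431542 in either direction made up 0.286% in cut and 0.0787% in uncut tails. The list medians were 0.23, 0.03, -0.28 and 0.00, and under DMSO 10 of the 16 were above 0.

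The other family members did not pass. In uncut tails the smallest adjusted p-values belonged to the homeobox gene DLX2 (ENSDARG00000079964) and the high mobility group gene hmgb2b. DLX2 had 2.24, 1.04 and 4.84 CPM in uncut SB431542 tails and 0.398, 0.571 and 1.16 CPM in uncut DMSO tails (1.91 ± 0.60, edgeR adjusted p = 0.139). For hmgb2b there were 38.0, 25.0 and 106.1 CPM in uncut SB431542 tails and 25.5, 11.4 and 12.5 CPM in uncut DMSO tails (1.80 ± 0.54, edgeR adjusted p = 0.151). Both groups overlapped for either gene, and replicate 4 held the highest value. Without it the changes were 1.15 and 0.95 (adjusted p = 0.559 and 0.396), and without replicate 3 both were called (adjusted p = 0.0338 and 0.0314). In cut tails hmgb2b had 30.5, 57.9 and 66.8 CPM with SB431542 and 23.1, 23.9 and 22.6 CPM with DMSO. These did not overlap, as for 12.6% of all tested genes that were higher, and the change was not called (1.16 ± 0.51, edgeR adjusted p = 0.314). DLX2 overlapped there (0.71 ± 0.53, edgeR adjusted p = 0.539). After excision under DMSO the next gene after SP6 was SP9, and for SB431542 in cut tails it was dlx4a. SP9, another zinc finger gene of the limb ectoderm in mice, averaged 11.2 ± 3.06 CPM in cut SB431542 and 9.37 ± 3.37 CPM in cut DMSO tails, against 9.55 ± 3.45 CPM in uncut SB431542 and 5.46 ± 1.26 CPM in uncut DMSO tails. The homeobox gene dlx4a averaged 1.20 ± 0.322 CPM in cut SB431542 and 2.58 ± 0.664 CPM in cut DMSO tails. With SB431542 it was at 1.68 ± 0.518 CPM in uncut tails, and with DMSO at 2.87 ± 0.143 CPM (SD, n = 3 each).

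**Figure D4:**
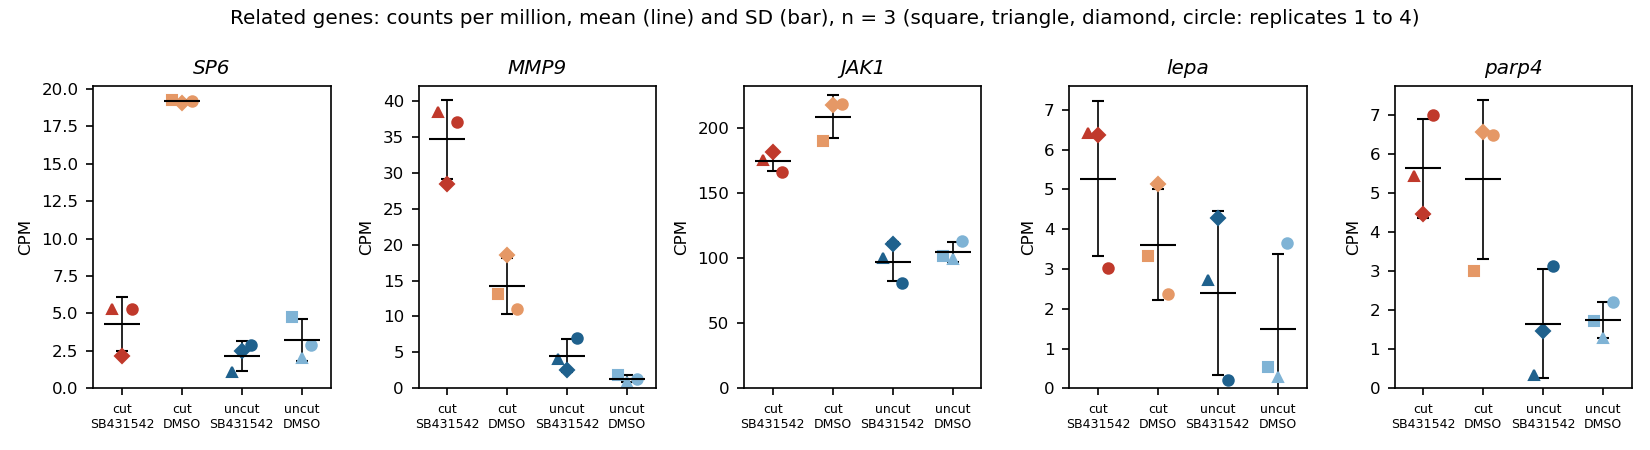
CPM of 5 related genes in each library (symbols mark replicate numbers), with the group mean as a line and the SD as a bar, n = 3 libraries per group. SP6 was at 19.0 to 19.2 CPM in cut DMSO tails and at or below 5.32 CPM elsewhere, while MMP9 was highest in cut SB431542 tails, JAK1 and parp4 were higher in all cut than in all uncut libraries of the same treatment, and lepa overlapped between groups.

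HMGB3 encodes a chromatin protein of the high mobility group box family. ENSDARG00000056725 had 126.7, 108.6 and 106.9 CPM in cut SB431542 tails, 90.0, 103.3 and 103.1 CPM in cut DMSO tails, 134.3, 104.2 and 135.6 CPM in uncut SB431542 tails and 114.4, 115.5 and 115.1 CPM in uncut DMSO tails. All cut DMSO libraries lay below all libraries of the other groups. The differences were small and none was called. Excision gave -0.13 ± 0.16 under SB431542 and -0.22 ± 0.16 under DMSO, and SB431542 gave 0.21 ± 0.16 in cut and 0.12 ± 0.16 in uncut tails (edgeR adjusted p = 0.750, 0.475, 0.561 and 0.753). The other ID, ENSDARG00000006408, averaged 41.8 ± 4.37, 42.5 ± 2.35, 46.5 ± 9.61 and 43.8 ± 3.87 CPM in cut SB431542, cut DMSO, uncut SB431542 and uncut DMSO tails (SD, n = 3), with all groups overlapping. ENSDARG00000056725 made up 73.2% ± 0.371 of HMGB3 CPM in cut SB431542 and 69.9% ± 0.512 in cut DMSO tails, against 72.8% ± 5.26 in uncut SB431542 and 72.4% ± 1.83 in uncut DMSO tails.

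As these IDs had the highest means of the set, their nearest genes by pattern were also taken. USP25 (r = 0.905), ACADVL (r = 0.874) and ASAP1 (r = 0.849) followed ENSDARG00000056725 most closely over the 12 libraries, and FUT9 (r = 0.838), ARPC5L (r = 0.823) and AFG1L (r = 0.821) followed ENSDARG00000006408.

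Leptin signals through its receptor to the kinase JAK2 and to STAT3, and SOCS3 feeds back on this path. The ligand gene lepb (ENSDARG00000045548) had 1, 5 and 7 counts in cut SB431542 tails and 0 counts in each of the other 9 libraries. In CPM the cut SB431542 libraries were at 0.121, 0.476 and 0.730. 3 counts over the group were taken as the limit that 0 counts allow. The pooled cut SB431542 level (13 counts, 0.459 CPM) was 5.16 times this limit in cut DMSO tails and 3.85 times that in uncut SB431542 tails. The limit covers counting error of the 0 counts only. The ratios take the 13 counts as exact, so they are not lower bounds of the fold change. The gene lepb did not pass the filter, and with no filter its edgeR adjusted p was 0.219 for SB431542 in cut tails and 0.268 for excision under SB431542. At this depth lepb was not detectable after excision under DMSO, where the limit was 0.0888 CPM.

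Its paralogue lepa had 6.41, 6.38 and 3.03 CPM in cut SB431542 tails and 3.33, 5.14 and 2.38 CPM in cut DMSO tails. Uncut tails held 2.71, 4.29 and 0.202 CPM with SB431542 and 0.531, 0.286 and 3.66 CPM with DMSO. All groups overlapped, and the excision changes were 1.26 ± 0.67 under SB431542 (edgeR adjusted p = 0.389) and 1.06 ± 0.72 under DMSO (edgeR adjusted p = 0.444). The receptor gene lepr, named here for its role and outside the rule for list genes, had excision changes of -0.05 ± 0.20 under SB431542 and 0.10 ± 0.20 under DMSO (edgeR adjusted p = 0.938 and 0.823).

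The leptin receptor and JAK-STAT list also held genes of other cytokine receptors, such as il6st. Of its 9 tested IDs, 3 were called higher after excision under SB431542 (SOCS3, il6st and JAK1, where 1.49% of all tested genes were) and 0 lower. Under DMSO 4 were called higher (the same 3 and a second SOCS3 ID; 3.65% of all tested genes) and 0 lower. The list medians were 0.84 and 1.00. STAT3, the transcription factor of this path, had changes of 1.38 ± 0.36 and 1.11 ± 0.33 that did not pass (edgeR adjusted p = 0.0539 and 0.0521), and the other kinase genes on the list, JAK2 and jak2a, had changes between -0.19 and -0.05. SOCS3 (ENSDARG00000026611), the feedback inhibitor, averaged 39.5 ± 9.07 CPM in cut and 11.5 ± 1.99 CPM in uncut SB431542 tails (log2 fold change 1.78 ± 0.27, edgeR adjusted p = 0.000653). Under DMSO it averaged 32.9 ± 10.4 CPM in cut and 5.01 ± 1.52 CPM in uncut tails (2.68 ± 0.30, edgeR adjusted p = 1.80e-05). The shared cytokine receptor subunit gene il6st changed by 1.04 ± 0.21 under SB431542 (edgeR adjusted p = 0.00900, 0.0501 without cut SB431542 replicate 4) and by 1.31 ± 0.20 under DMSO (edgeR adjusted p = 0.000575).

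The kinase gene JAK1, also the nearest gene to MVP by pattern, had 175.6, 181.4 and 166.7 CPM in cut SB431542 tails and 189.9, 218.1 and 218.5 CPM in cut DMSO tails, against 99.9, 111.3 and 81.2 CPM in uncut SB431542 tails and 101.6, 99.1 and 113.2 CPM in uncut DMSO tails. Its excision changes were 0.84 ± 0.16 under SB431542 (edgeR adjusted p = 0.00707) and 1.00 ± 0.16 under DMSO (edgeR adjusted p = 0.000877). A second SOCS3 ID, ENSDARG00000025428, was called under DMSO at 1.76 ± 0.46 (edgeR adjusted p = 0.0496), a call that was kept in 1 of 12 leave-outs of a library, where the adjusted p ran from 1.14e-05 to 0.152. None of the 9 IDs was called for SB431542 in cut or in uncut tails.

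ALDH1A2 oxidises retinal to retinoic acid. ALDH1A2 (ENSDARG00000053493) had 6.29, 9.42 and 10.7 CPM in cut SB431542 tails and 12.4, 9.99 and 10.2 CPM in cut DMSO tails. Uncut tails held 9.08, 6.36 and 19.2 CPM with SB431542 and 9.96, 6.71 and 4.91 CPM with DMSO. Cut DMSO libraries were all above uncut DMSO libraries, narrowly, while all other pairs of groups overlapped. Excision gave -0.42 ± 0.34 under SB431542 (edgeR adjusted p = 0.605) and 0.63 ± 0.36 under DMSO (edgeR adjusted p = 0.339). The value under SB431542 turned to 0.18 without uncut SB431542 replicate 4. SB431542 gave -0.30 ± 0.34 in cut tails (edgeR adjusted p = 0.704) and 0.75 ± 0.36 in uncut tails (edgeR adjusted p = 0.311). The value in uncut tails was 0.15 without that replicate. The interaction was -1.04 ± 0.50 (edgeR adjusted p = 0.910), and -0.44 without it.

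Of 23 tested IDs of the retinoic acid list, 2 were called higher after excision under SB431542 (1.49% of all tested genes) and 0 lower. Under DMSO 1 was called higher (3.65% of all tested genes) and 0 lower. The list medians were 0.13 and -0.09. CRABP1 (ENSDARG00000035904), which encodes a cytoplasmic carrier of retinoic acid, averaged 28.6 ± 4.44 CPM in cut and 16.1 ± 3.41 CPM in uncut SB431542 tails (0.84 ± 0.21, edgeR adjusted p = 0.0415), a call kept in 3 of 12 leave-outs (adjusted p from 0.0242 to 0.185). Under DMSO it averaged 35.1 ± 3.23 CPM in cut and 19.5 ± 1.44 CPM in uncut tails (0.85 ± 0.20, edgeR adjusted p = 0.0151). That call ended without cut DMSO replicate 3 (adjusted p = 0.0823), uncut DMSO replicate 1 (0.0750) or uncut DMSO replicate 4 (0.0752). The second CRABP1 ID, ENSDARG00000045926, went the other way and was not called. Its excision changes were -1.59 ± 0.65 under SB431542 (edgeR adjusted p = 0.2285) and -0.88 ± 0.53 under DMSO (edgeR adjusted p = 0.373).

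CYP26B1, an enzyme that degrades retinoic acid, averaged 14.2 ± 2.73 CPM in cut and 6.86 ± 1.77 CPM in uncut SB431542 tails (1.08 ± 0.25, edgeR adjusted p = 0.0325), and the call was kept in 6 of 12 leave-outs (adjusted p from 0.0348 to 0.192). It averaged 10.6 ± 1.38 CPM in cut and 7.98 ± 0.746 CPM in uncut DMSO tails. For SB431542 in cut tails 0 of the 23 IDs were called, the nearest being RBP4, the blood carrier of retinol, at 2087 ± 288 CPM in cut SB431542 and 1372 ± 87.3 CPM in cut DMSO tails (0.61 ± 0.15, edgeR adjusted p = 0.0844). Next came the nuclear receptor gene nr2f5 (0.69 ± 0.24, edgeR adjusted p = 0.169), the short-chain reductase gene DHRS3 (ENSDARG00000044803, 0.77 ± 0.28, edgeR adjusted p = 0.185) and RDH10 (ENSDARG00000012369). RDH10, which makes the substrate of Aldh1a2, had 5.57, 4.57 and 6.78 CPM in cut SB431542 and 9.82, 7.23 and 9.51 CPM in cut DMSO tails (-0.66 ± 0.27, edgeR adjusted p = 0.253). The second RDH10 ID, ENSDARG00000058730, had a change of 0.10 ± 0.25 (edgeR adjusted p = 0.881).

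In uncut tails 0 of the 9 marker IDs were called for SB431542, where edgeR called 0.0787% of all tested genes (11 genes, against 666 without uncut SB431542 replicate 3 and 4 without replicate 4). At an unadjusted p under 0.05 there was 1 (16.5% of all tested genes). DESeq2 called 1 marker ID (msx1b, adjusted p = 0.0470), and 331 of all 13978 genes tested. The 1 ID without overlap between the groups was msx1b, higher with SB431542, where 9.48% of all tested genes were higher without overlap. Under SB431542 the 1 ID whose cut and uncut libraries did not overlap was MVP, where 9.69% of all tested genes were higher without overlap. The interaction was called for 0 of the 9 IDs and for 0 of all 13978 genes (0.0%). At an unadjusted p under 0.05 it held 2 of the 9, DLX5 and ALDH1A2, and 706 of all tested genes (5.05%). Without uncut SB431542 replicate 4 the edgeR unadjusted p was 0.123 for DLX5 and 0.303 for ALDH1A2. DESeq2 called the interaction for 2 genes, neither of them a marker.

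Other genes known from wound epidermis and blastema were listed as well. The 26 tested IDs had median excision changes of 0.41 under SB431542 and 0.59 under DMSO. Over all tested genes 1.49% and 3.65% were called higher. Of the 26 IDs 6 were called higher under SB431542 and 6 under DMSO, and 0 lower under either. Among them were FOSL2, an AP-1 subunit gene, with changes of 2.32 ± 0.26 under SB431542 and 2.29 ± 0.24 under DMSO (edgeR adjusted p = 2.61e-05 and 1.20e-05), and the fibronectin gene FN1 (ENSDARG00000006526), with 4.42 ± 0.44 and 5.01 ± 0.44 (edgeR adjusted p = 0.000168 and 3.78e-05). The 6 were not the same genes under both treatments. SHH (ENSDARG00000068567) was called under DMSO only (1.14 ± 0.21, edgeR adjusted p = 0.00297), with 0.41 ± 0.21 under SB431542 (0.357). This SHH ID is also one of the notochord markers given below. FOSL1, another AP-1 subunit gene, was called under SB431542 only (2.41 ± 0.52, edgeR adjusted p = 0.0434), with 0.84 ± 0.51 under DMSO (0.395). That FOSL1 call was kept in 2 of 12 leave-outs (adjusted p from 0.00702 to 0.122). The interaction was -0.73 ± 0.30 for SHH and 1.57 ± 0.73 for FOSL1 (edgeR adjusted p = 0.910 for each). A difference between the treatments was thus not shown for either gene. Without uncut SB431542 replicate 4, 6 of 27 were called higher under SB431542 and 11 of 27 under DMSO. In that fit 273 and 836 of all 14480 genes tested were called higher. The list was written with earlier results of these data known, so its direction is not independent evidence.

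1 gene of that list was called for SB431542 in cut tails, the gelatinase gene MMP9 (ENSDARG00000042816), and it was higher. It had 38.5, 28.4 and 37.0 CPM in cut SB431542 tails and 13.2, 18.6 and 10.97 CPM in cut DMSO tails, against 4.13, 2.52 and 7.06 CPM in uncut SB431542 tails and 1.86, 0.857 and 1.35 CPM in uncut DMSO tails. The groups did not overlap in any of the 4 comparisons. The change with SB431542 was 1.28 ± 0.25 in cut tails (edgeR adjusted p = 0.0343) and 1.79 ± 0.47 in uncut tails (edgeR adjusted p = 0.101). The first was called in 10 of 22 alternative analyses and in 4 of 12 leave-outs, where its adjusted p ran from 0.00261 to 0.230. The second was called without uncut SB431542 replicate 3 (adjusted p = 0.0192). Without uncut SB431542 replicate 4 it fell to 1.305 (edgeR adjusted p = 0.376).

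Markers of other cell types differed between cut and uncut tails too. Macrophage markers (14 IDs from 8 names) summed to 111.2 to 204.7 CPM in cut SB431542 and 136.1 to 230.2 CPM in cut DMSO tails, against 45.4 to 49.7 CPM in uncut SB431542 and 40.3 to 56.2 CPM in uncut DMSO tails, and 6 of the 7 tested IDs were called higher under either treatment. Skeletal muscle markers (7 IDs) summed to 30926 to 37574 CPM in cut SB431542 and 31239 to 38229 CPM in cut DMSO tails, against 49160 to 55136 CPM in uncut SB431542 and 54831 to 59482 CPM in uncut DMSO tails. Periderm markers (6 IDs) summed to 10911 to 13466 CPM in cut SB431542 and 8491 to 10605 CPM in cut DMSO tails, against 15170 to 19173 CPM in uncut SB431542 and 15510 to 23719 CPM in uncut DMSO tails. For basal epidermis (5 IDs) the sums were 1449 to 2051, 1235 to 1525, 2225 to 2843 and 1898 to 2356 CPM in the same order of groups. Abundant genes weigh most in such sums, and under SB431542 none of the periderm or basal epidermis IDs was called after excision, and 3 of 6 and 3 of 5 had changes above 0. Under DMSO 3 periderm IDs and 1 basal epidermis ID were called lower. Of the 7 muscle IDs 2 were called lower under SB431542 and 5 under DMSO. Among all tested genes, 2.06% were called in either direction after excision under SB431542 and 5.58% under DMSO. No matched marker of these lists was at 0 in every library. The macrophage gene mpeg1.1, the basal epidermis gene krtt1c19e and the skeletal muscle gene mylpfa matched no symbol. Several of the 14 macrophage IDs carry the symbol MFAP4. LCP1, CORO1A and SPI1 on that list are not limited to macrophages, so the list does not separate macrophages from other leukocytes. Fin fold mesenchyme markers (10 IDs) summed to 2272 to 2969 CPM in cut SB431542 and 2108 to 2616 CPM in cut DMSO tails, against 2885 to 4282 CPM in uncut SB431542 and 2594 to 2735 CPM in uncut DMSO tails. None of the 8 tested was called, and TBX5 alone was at 0 in every library. In such bulk samples fewer cells of a type and less RNA per cell cannot be told apart, and the part of these shifts in the changes of MVP and the other markers was not tested.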

How the data were processed

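PolyA RNA of 12 pools of 100 larval tails was sequenced with a 3′ tag kit, per the labels' protocols. The authors deposited estimated counts per Ensembl gene, without normalization. Of each library's nonzero values, 23.1% to 26.7% were fractional. They also deposited a normalized signal per gene, scaled by 1 factor per library, from which whole reads were recovered for 100% of values within 1e-04. Per the submitters' processing notes, reads were placed on GRCz11. No source used here names the aligner or the counting program. Symbols came from a table that matched 23598 of 30258 IDs (78.0%), printed as given there. No genome was used, so no coordinates or sequences are given.

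Estimated counts were rounded and tested with edgeR 4.0.16 in R 4.3.3 (quasi-likelihood F test, robust, legacy = FALSE, TMM, filterByExpr with a minimum count of 10, 1 fit of 4 group means, 13978 genes, common biological coefficient of variation 0.261). Scripts were tested on simulated data. The markers and lists were chosen with earlier results of these data known. All markers were described in each comparison, with up to 4 genes per list by smallest adjusted p, and the 3 genes most like each of the 3 most abundant marker IDs by Pearson correlation of log2 CPM (prior count 2). Alternatives were RLE scaling, no filter, DESeq2 1.42.0, limma-voom and limma-trend (limma 3.58.1, log2 of the deposited signal plus 1 or 0.1), a replicate block, fits of the groups compared, and each library left out. Added after seeing the data were a test on recovered reads and edgeR's earlier quasi-likelihood method. The recovered reads equalled the rounded counts for 100% of values, so that test repeats the main fit and is no separate support. Replicate numbers were not the same in all groups, and libraries were not treated as pairs in the main fit.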

Additional observations from a re-analysis of the deposited data

How the results depend on the processing

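MVP was called after excision under either treatment in all 22 alternatives. The test on recovered reads, which repeats the main fit, is counted among the alternatives here and above. Alternatives were tallied for 31 fold changes of marker IDs. Left out were those of SP8 ENSDARG00000056666 and HMGB3 ENSDARG00000006408, and some of SP8 ENSDARG00000011870 and HMGB3 ENSDARG00000056725. Excision under DMSO, for instance, ran from -0.252 to 0.318 over the alternatives for SP8 ENSDARG00000056666. For HMGB3 ENSDARG00000006408 it ran from -0.115 to 0.0131. Of the 677 values given for the 31 changes, 18 turned the sign of a change that was not called, 8 brought one past the threshold and 651 did neither. Outside the markers, 28 changes of list genes were called, of which 17 were called in all alternatives run and 11 were lost in at least 1. MMP9 with SB431542 in cut tails was called in 10 of 22, and SOCS3 ENSDARG00000025428 under DMSO and the AP-1 subunit gene FOSL1 after excision under SB431542 in 7 of 22 each. Marker IDs called after excision under DMSO were 1, and 2 with DESeq2 and with a fit of only the groups compared (msx2b added), with 1 to 2 when a library was left out. For SB431542 in cut tails they were 0, and 1 with DESeq2 and with the fit of only the groups compared (DLX5), with 0 to 1 when a library was left out. In uncut tails they were 0, 1 with DESeq2 (msx1b) and 0 to 1 when a library was left out. Of all 13978 genes, DESeq2 called 1079, 330 and 331 in these comparisons, in the same order. The fit of only the groups compared called 1468 of 13142 genes after excision under DMSO. For SB431542 in cut tails that fit called 537 of 13415.

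The MVP change with SB431542 in uncut tails ran from -0.466 to 0.012 over the leave-outs. Its interaction was -0.0134 and -0.0119 on the deposited signal with a pseudocount of 1 and 0.1, and -0.268 to 0.211 over the leave-outs. DLX5 with SB431542 in uncut tails ran from -0.321 to 0.112, and ALDH1A2 after excision under SB431542 from -0.686 to 0.185. For msx1b after excision under DMSO the value was 9.53e-05 with no filter, 0.0653 with the replicate block and -0.169 to 0.108 over the leave-outs. The cause was not tested in any of these.

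Counts of called genes among all genes tested also changed with the processing. Where edgeR called 780 genes after excision under DMSO, the fit of only the groups compared called 1468. Under SB431542 edgeR called 288, that fit 127 and DESeq2 553. For SB431542 in cut tails 40 were called, 130 with no filter, 330 by DESeq2, 537 in the fit of only the groups compared, 14 with the replicate block, 14 and 9 on the deposited signal (pseudocount 1 and 0.1) and 12 by edgeR's earlier method. In uncut tails 11 were called, against 109, 331, 4, 18, 2 and 2 in the same order, with 1 each under RLE scaling and limma-voom. Without uncut SB431542 replicate 4 the 4 comparisons gave 399 (excision, SB431542), 1432 (excision, DMSO), 473 (SB431542, cut) and 4 (SB431542, uncut). Without uncut SB431542 replicate 3 the last count was 666.

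Correlations of deviations between libraries with the same replicate number ran from -0.0294 to 0.343. Libraries with unlike numbers were not compared, so whether the numbers mark pairs was not tested. The replicate block changed no marker call, but called 339 genes for excision under SB431542 and 14 for SB431542 in cut tails, against 288 and 40. Counting limits the low genes: lepb had 13 reads in all, and a change in msx3 between the other 11 libraries was not detectable at this depth.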

Other observations

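Cell division genes were listed beside the markers. Of 14 tested IDs, 1 was called higher after excision under SB431542 (1.49% of all tested genes) and 0 lower. Under DMSO 2 were called higher (3.65% of all tested genes) and 0 lower. The medians were 0.78 under SB431542 and 0.93 under DMSO, and 13 and 14 of the 14 IDs had changes above 0. The mitotic kinase gene plk1 averaged 27.1 ± 8.73 CPM in cut and 11.8 ± 6.07 CPM in uncut SB431542 tails (log2 fold change 1.17 ± 0.29, edgeR adjusted p = 0.0405, called in 3 of 12 leave-outs with adjusted p from 0.000605 to 0.186). Under DMSO it averaged 30.7 ± 1.94 CPM in cut and 10.3 ± 1.24 CPM in uncut tails (1.59 ± 0.29, edgeR adjusted p = 0.00258). The cyclin gene CCNB1 averaged 12.95 ± 0.606 CPM in cut and 4.36 ± 1.29 CPM in uncut DMSO tails (1.58 ± 0.33, edgeR adjusted p = 0.00705, 0.0606 without uncut DMSO replicate 4). Without uncut SB431542 replicate 4, 8 of the 14 were called higher after excision under SB431542 and 9 under DMSO. In that fit 273 and 836 of all 14480 genes tested were called higher.

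The remaining cell type lists are given as sums of CPM per library. Neutrophil markers (4 IDs) summed to 264 to 416 in cut SB431542, 405 to 503 in cut DMSO, 241 to 399.7 in uncut SB431542 and 348 to 508 in uncut DMSO tails. Of these 4 IDs 0 were called after excision under SB431542, where 2.06% of all tested genes were called. Under DMSO 3 were called higher (3.65% of all tested genes). The medians were 0.55 and 1.16. Notochord markers (9 IDs) summed to 991 to 1072, 873 to 1015, 1981 to 3050 and 1686 to 2923 in the same order of groups. Neuron markers (8 IDs) summed to 604 to 756, 714 to 738, 619.7 to 1021 and 1008 to 1065, while erythrocyte markers (5 IDs) summed to 412 to 719, 558 to 1277, 330.3 to 862 and 549 to 703. Of the 9 notochord IDs, 0 were called higher and 3 lower after excision under SB431542, where 2.06% of all tested genes were called. Under DMSO 1 was called higher and 4 lower, where 5.58% of all tested genes were called. The neutrophil genes mpx and cpa5 and the erythrocyte gene hbbe1.1 matched no symbol.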
